A study of Saccharomyces cerevisiae with 4 samples.

Results

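The 33 genes described here encode enzymes of Saccharomyces cerevisiae that reduce sulfate and make methionine, cysteine and S-adenosylmethionine, with those of methionine salvage. They were chosen by gene symbol, and the brightest probe set of a gene on the array stands for it. All 33 listed genes were found among the 5449 genes tested, each with a single probe set. All 33 were above background on all 4 arrays, but so were 5309 of the 5449, so this does not set them apart. Transcripts were measured on Affymetrix arrays in strain W1588-4c, whose labels give mating type MATa, the alleles ade2-1, can1-100, trp1-1 and ura3-1, the further markers his3-11,15 and leu2-3, 112, and RAD5+. Every culture carried these alleles and grew exponentially at 30 °C in synthetic complete medium with 2% glucose. In the allyl alcohol group the cells received 0.4 mM of the compound for 3 h from an optical density of about 1, and the untreated group received none. Each group had 2 arrays, labelled replicates 1 and 2 and called untreated 1 and 2 and allyl alcohol 1 and 2 below. How long the untreated cultures grew before harvest is not stated in the labels, so time in culture and treatment cannot be told apart.

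Yeast takes up sulfate, activates it with ATP, and reduces it first to sulfite and then to sulfide. Sulfide joins a carbon chain made from aspartate to give homocysteine, which is methylated to methionine or converted to cysteine through cystathionine. Methionine is activated to S-adenosylmethionine, the main methyl donor, whose remains are recycled through homocysteine or through the salvage of methylthioadenosine. Many genes of the pathway are induced by the activator Met4 with the DNA-binding proteins Cbf1, Met31 and Met32 when sulfur amino acids run low. Cysteine also feeds the synthesis of glutathione. That thiol binds acrolein, the aldehyde that alcohol dehydrogenases make from allyl alcohol.

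Arrays of the same label stood apart. Across the 33 genes, which are not independent replicates, the log2 signals of untreated 1 and untreated 2 had a Pearson r of 0.308, and those of allyl alcohol 1 and 2 one of 0.335. The value was 0.998 between untreated 1 and allyl alcohol 2, and 0.987 between untreated 2 and allyl alcohol 1. For 28 of the 33 genes, both of these crosswise differences were smaller than the difference inside either label. That count was made for the 33 only. Across all 5449 genes r was 0.996 and 0.991 crosswise against 0.757 inside untreated and 0.740 inside allyl alcohol. The higher crosswise correlation was thus not particular to the pathway. The arrays thus went against their labels. Whether labels were exchanged between arrays is not settled by the values. An exchange between untreated and allyl alcohol arrays would alter every label mean and label difference given here. An exchange of replicate numbers inside a group would leave them unchanged. Every group, mean and direction below is that of the labels. All 6 a-specific mating genes looked up, which MATa cells express, were above background on every array, and so were the 4 alpha-specific ones, which they do not. This background thus did not separate expressed from unexpressed mating genes.

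By label, no enzyme of the pathway passed the test. The comparison asks which transcripts differ after exposure to allyl alcohol. In limma with Benjamini-Hochberg adjustment over all genes, 0 of the 33 were called, against 0% of all 5449 genes, and 0 of either had an unadjusted p under 0.05. Differences, given as allyl alcohol minus untreated in log2 signal, ran from -0.25 (STR2) to 0.30 (MET13), with 15 of the 33 above 0 and 18 below, and their median was -0.0065 beside -0.02 over all genes. The adjusted p was 1 for each. These small differences do not show level transcripts, since the median standard error of the 33 was 0.54 and the median half-width of a 95% interval was 1.56. The labelled groups did not overlap for 2 of the 33 genes, STR2 and UTR4, against 5.23% of all genes. With 2 arrays a group, 0.333 is the smallest p that exact permutation, two-sided, allows for a single gene.

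Which array was left out set the direction of that comparison. The median difference over the 33 genes was -0.23 without untreated 1 and -0.17 without allyl alcohol 1, but 0.17 without untreated 2 and 0.16 without allyl alcohol 2. The most extreme gene was MET2, which encodes the homoserine acetyltransferase that commits homoserine to methionine. Its label difference was -0.11 with a standard error of 3.71, between 9.61 ± 4.87 (SD, n = 2) and 9.50 ± 5.17 (SD, n = 2). It was -3.55 and -3.76 without untreated 1 and allyl alcohol 1, and 3.34 and 3.55 without untreated 2 and allyl alcohol 2. All 4 arrays enter the values that follow.

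**Figure D1:**
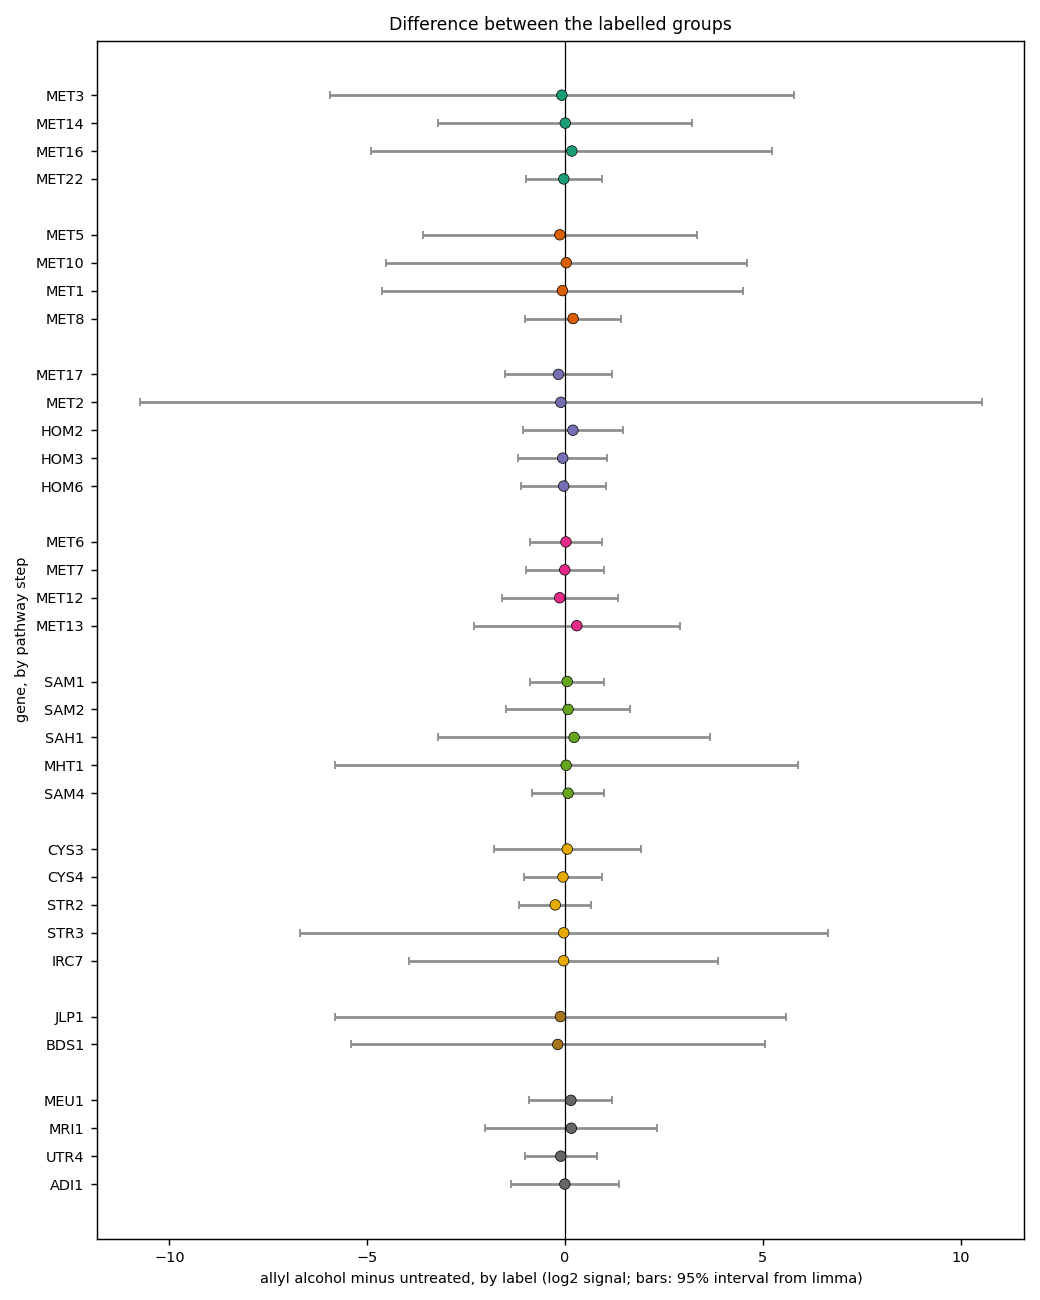
Difference between the labelled groups for each of the 33 genes, allyl alcohol minus untreated in log2 signal, with the 95% interval of limma as a bar and genes grouped and coloured by pathway step. Every interval spans 0, and the widest is that of MET2, whose difference is -0.11.

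The larger differences in the pathway lay between arrays of the same label, with members of most steps on both sides of the 2-fold line. Here untreated 2 minus untreated 1 and allyl alcohol 1 minus allyl alcohol 2 are given, an order chosen after the values were seen. These are single arrays and carry no test. Counted as at least 2-fold in both labels, 13 of the 33 genes were higher on untreated 2 and allyl alcohol 1, or 39.4%, where 18.6% of all genes were. In the other direction 3 genes, or 9.09%, were lower, where 15.8% of all genes were. The remaining 17 were neither, and 10 of them differed by less than 0.5 in log2 signal inside both labels. The median difference over the 33 was 0.40 inside untreated and 0.39 inside allyl alcohol, beside 0.04 and -0.0011 over all genes. Both labels gave the same sign for 31 of the 33, a count not made over all genes. The differences inside the labels had r = 0.994 across the 33 genes beside 0.973 across all 5449. The genes share arrays and a joint normalization. RNA came from whole cultures, so fewer cells with a transcript and less of it per cell cannot be told apart.

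**Figure D2:**
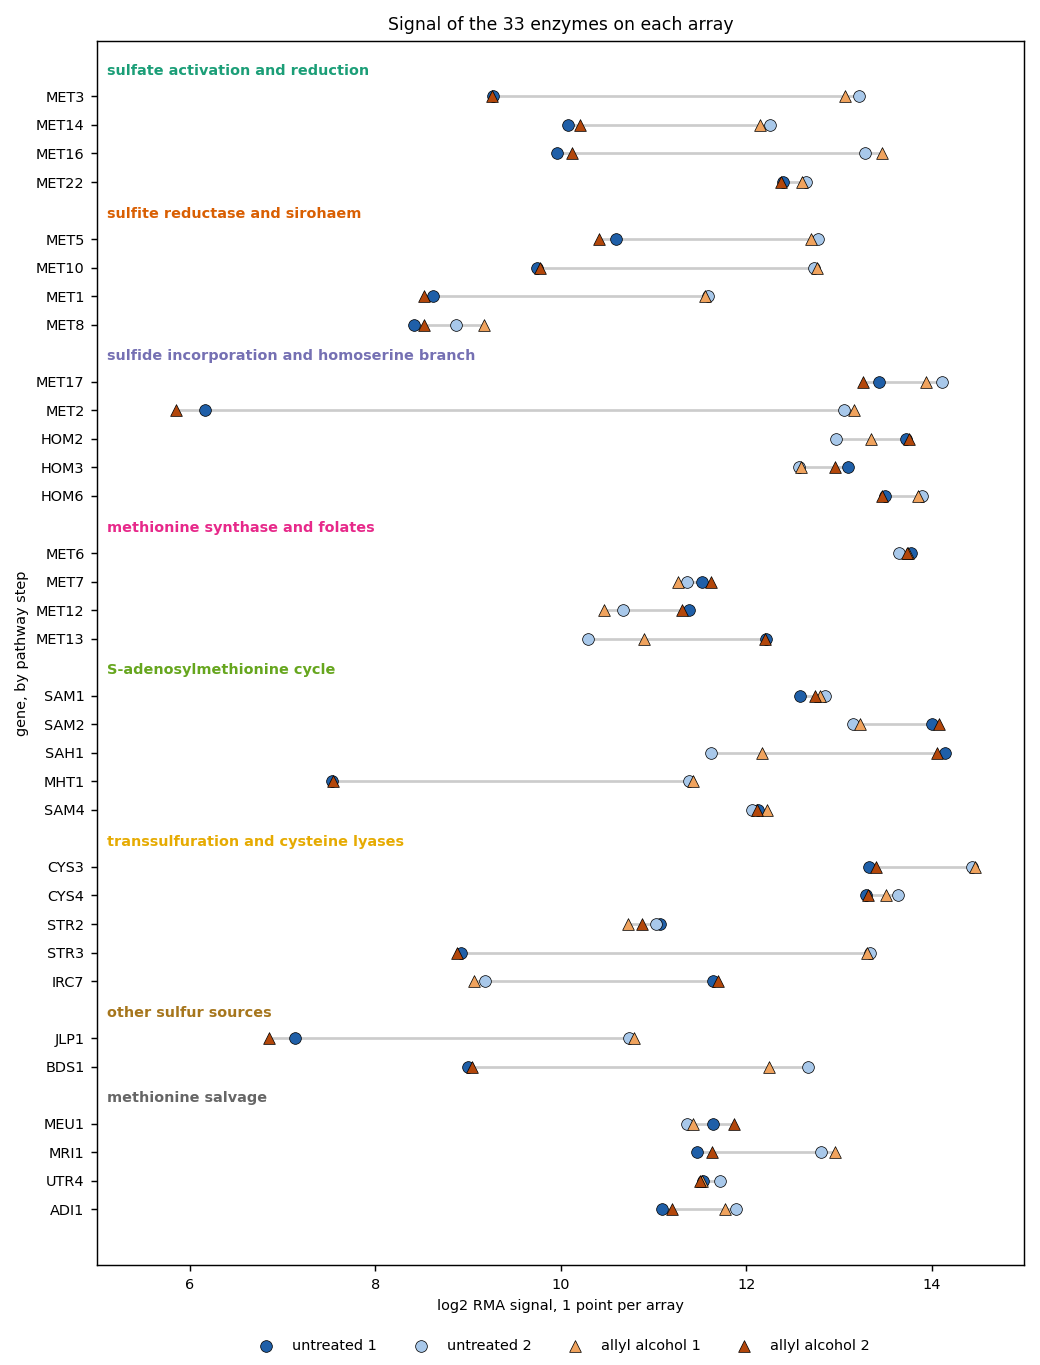
Log2 RMA signal of each of the 33 genes on the 4 arrays, 1 point per array, with circles for the untreated label, triangles for allyl alcohol and genes grouped by pathway step. For MET3, MET16, MET2 and STR3, untreated 2 and allyl alcohol 1 lie far to the right of the other arrays, for SAH1 and IRC7 far to the left, and for MET6 and SAM4 all 4 points lie close together.

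Of the 4 genes of sulfate activation and reduction, 3 were among the 13. MET3 encodes ATP sulfurylase, which activates sulfate. Its log2 signal was 9.27 on untreated 1 and 13.21 on untreated 2, and 13.06 on allyl alcohol 1 and 9.25 on allyl alcohol 2. Each labelled group thus joined a low and a high array, 15.4-fold apart inside untreated and 14.0-fold inside allyl alcohol. The label difference was -0.08 (standard error 2.04). MET16, the reductase that makes sulfite from the activated sulfate, had 9.95 and 13.28 in untreated and 13.46 and 10.12 in allyl alcohol, in the order of the replicate numbers used from here on. It was 10.0-fold and 10.2-fold higher on untreated 2 and allyl alcohol 1, with a label difference of 0.17 (standard error 1.76). MET14, the kinase between these enzymes, had 10.08 and 12.26, then 12.15 and 10.20, and was 4.53-fold and 3.85-fold higher on the same arrays. MET22, the phosphatase that clears the by-product of that reduction, stayed within 12.37 and 12.64 on all 4 arrays.

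Sulfite reductase followed the same arrays. Its alpha subunit gene MET10 had 9.74 and 12.73 in untreated and 12.76 and 9.77 in allyl alcohol, 7.95-fold and 7.97-fold apart. The label difference of MET10 was 0.03 (standard error 1.59). The beta subunit gene MET5 had 10.59 and 12.78, then 12.69 and 10.41, and so was 4.55-fold and 4.86-fold higher on untreated 2 and allyl alcohol 1. Sirohaem, the cofactor of this enzyme, is made by the products of MET1 and MET8. MET1, the methyltransferase of that branch, had 8.63 and 11.58, then 11.55 and 8.52, a difference of 7.76-fold and 8.16-fold. MET8, which completes sirohaem, did not reach 2-fold, with 8.42 and 8.87 in untreated and 9.17 and 8.52 in allyl alcohol.

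Where sulfide meets the carbon chain, a single gene carried the largest difference of the pathway. MET2 had 6.17 and 13.05 in untreated and 13.16 and 5.85 in allyl alcohol, 118-fold and 158-fold apart. Only 2 of the 5449 genes exceeded it in each label. Its low arrays lay just above their backgrounds of 5.58 and 5.64. MET17, the sulfhydrylase that joins sulfide to the product of Met2, had 13.43 and 14.11, then 13.94 and 13.26, 1.60-fold higher on untreated 2 and on allyl alcohol 1. The label difference of MET17 was -0.17 (standard error 0.47).

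Enzymes that supply homoserine did not share that pattern. HOM3, the aspartate kinase that opens the branch, was lower on untreated 2 and allyl alcohol 1, with 13.10 and 12.56, then 12.59 and 12.95. HOM2, the dehydrogenase after it, went the same way with 13.73 and 12.97, then 13.34 and 13.75. HOM6, homoserine dehydrogenase, lay slightly higher on those arrays, with 13.50 and 13.90, then 13.86 and 13.47. None of these reached 2-fold in either label. Homoserine also leads to threonine through THR1 and THR4, and both were slightly lower on untreated 2 and allyl alcohol 1, by 0.79 and 0.56 for THR1 and by 0.16 and 0.22 for THR4 in log2 signal.

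**Figure D3:**
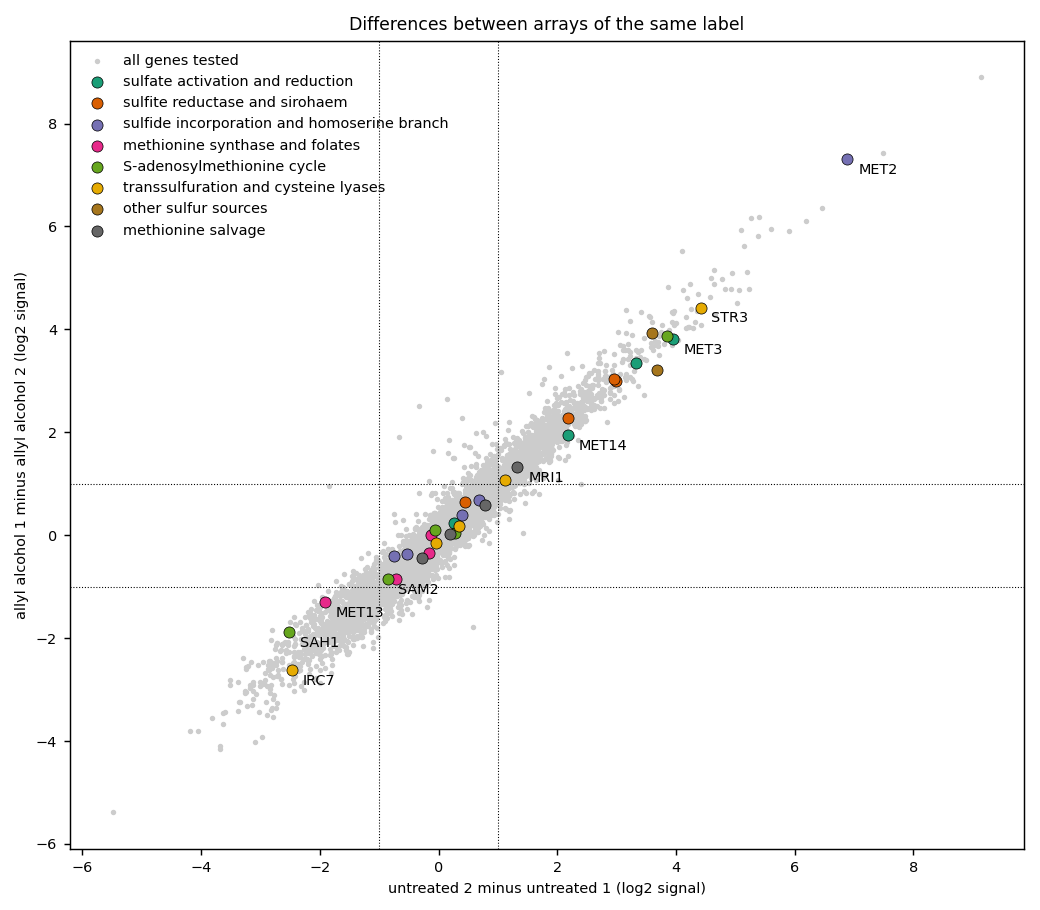
Untreated 2 minus untreated 1 (x) against allyl alcohol 1 minus allyl alcohol 2 (y) in log2 signal, with the 5449 genes in grey, the 33 enzymes coloured by step and dotted lines at 2-fold. The enzymes lie along the diagonal with r = 0.994, from IRC7 and SAH1 at the lower left to MET2 at the upper right.

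Methionine synthase itself varied little between arrays. MET6, which methylates homocysteine, had 13.78 and 13.65 in untreated and 13.74 and 13.73 in allyl alcohol, a label difference of 0.02 (standard error 0.31). The folate enzymes that serve it varied little or were lower on untreated 2 and allyl alcohol 1. MET13, the main methylenetetrahydrofolate reductase, had 12.21 and 10.29, then 10.89 and 12.20. It was 3.77-fold higher on untreated 1 than on untreated 2, and 2.47-fold higher on allyl alcohol 2 than on allyl alcohol 1. MET12, the isoenzyme, had the same order but stayed under 2-fold, with 11.38 and 10.67, then 10.46 and 11.31. MET7, which adds glutamate chains to folates, ranged from 11.26 to 11.61.

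The S-adenosylmethionine cycle held genes in both directions. SAH1, the hydrolase that removes S-adenosylhomocysteine after methyl transfer, had 14.14 and 11.62 in untreated and 12.17 and 14.05 in allyl alcohol. It was 5.75-fold higher on untreated 1 and 3.69-fold higher on allyl alcohol 2 than on the other array of the label, with a label difference of 0.23 (standard error 1.20). Its difference inside untreated was thus opposite to that of MET2. The synthetase genes SAM1 and SAM2 had different orders of arrays. SAM1 had 12.57 and 12.85, then 12.79 and 12.74, with a label difference of 0.05 (standard error 0.33). SAM2 had 14.01 and 13.15, then 13.23 and 14.08, and was 1.81-fold higher on untreated 1 and on allyl alcohol 2. These paralogues are closely related in sequence, so their probe sets may share signal.

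Homocysteine can also be methylated without folate by MHT1 and SAM4, which use S-methylmethionine and S-adenosylmethionine. MHT1 had 7.53 and 11.38 in untreated and 11.42 and 7.54 in allyl alcohol, 14.5-fold and 14.7-fold apart. SAM4, in contrast, stayed between 12.07 and 12.22 on all arrays. One member of this pair thus spanned nearly the range of MET3 while the other was level.

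Transsulfuration, which moves sulfur between homocysteine and cysteine, was split within each direction. CYS3, the lyase that releases cysteine from cystathionine, had 13.32 and 14.44, then 14.47 and 13.40. The difference of 2.17-fold and 2.09-fold was the smallest among the 13 genes, and the label difference was 0.06 (standard error 0.65). CYS4, which forms cystathionine from homocysteine, differed by less, with 13.29 and 13.64, then 13.50 and 13.32. In the reverse direction STR3, the lyase that returns homocysteine, had 8.92 and 13.33, then 13.30 and 8.88, so that untreated 2 and allyl alcohol 1 stood 21.3-fold and 21.5-fold higher. The label difference of STR3 was -0.03 (standard error 2.32). STR2, which makes cystathionine from cysteine, was nearly level inside both labels, with 11.07 and 11.03 in untreated and 10.73 and 10.87 in allyl alcohol. Its groups did not overlap, but the label difference of -0.25 (standard error 0.32) did not pass the test. IRC7, a lyase that acts on cysteine and its conjugates, ran opposite to STR3, with 11.65 and 9.18, then 9.06 and 11.69. It was 5.53-fold higher on untreated 1 and 6.18-fold higher on allyl alcohol 2.

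Both genes for other sulfur sources were among the 13. JLP1, a dioxygenase that frees sulfite from sulfonates, had 7.14 and 10.74 in untreated and 10.78 and 6.86 in allyl alcohol, 12.1-fold and 15.2-fold apart. BDS1, a sulfatase that frees sulfate from its esters, had 9.00 and 12.67, then 12.25 and 9.05, which were 12.8-fold and 9.22-fold apart. The high arrays were untreated 2 and allyl alcohol 1 for both.

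The 4 genes of methionine salvage had median differences of 0.49 and 0.30, beside 2.75 and 2.64 for sulfate activation and reduction. MRI1, the isomerase of the salvage chain, was the only one of the 4 past 2-fold, with 11.47 and 12.80, then 12.95 and 11.63, or 2.51-fold and 2.50-fold. ADI1, a dioxygenase near the end of the chain, had 11.09 and 11.88, then 11.77 and 11.19. MEU1, the phosphorylase that opens the chain, had 11.64 and 11.36, then 11.43 and 11.87, with a label difference of 0.15 (standard error 0.37). UTR4, the enolase-phosphatase, stayed between 11.50 and 11.72. At the edge of the 2-fold count, CYS3 and MRI1 lay inside. MET17, at 1.60-fold in both labels, and ADI1, at 1.73-fold and 1.49-fold, lay outside. On the lower side MET13 lay inside and SAM2, at 1.81-fold in both labels, outside.

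Other genes of sulfur metabolism were called in neither direction by limma, with 0 of 6 regulators, 0 of 7 permeases, 0 of 7 glutathione genes and 0 of 4 one-carbon folate genes. The share of all 5449 genes called was 0% too, so these counts do not set the lists apart. Inside the labels, 6 of the 7 permease genes were at least 2-fold higher on untreated 2 and allyl alcohol 1 and 0 lower, with medians of 3.96 and 4.14 in log2 signal. Among them SUL1, a sulfate permease, had 6.59 and 11.19, then 11.22 and 6.21. SAM3, the S-adenosylmethionine permease, was the exception, with 11.67 and 10.72, then 10.94 and 11.70.

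The regulators were not uniform. Of the 6, 3 were higher and 1 lower by the same count. MET32, a DNA-binding partner of Met4, had 6.03 and 11.30 in untreated, 38.5-fold apart, and 11.64 on allyl alcohol 1. Its signal on untreated 1 lay just above the background of 5.58 on that array. Allyl alcohol 2 lay below background at 5.48, so the difference inside that label was at least 64.1-fold, taken against the background of that array. MET30, a subunit of the ubiquitin ligase that restrains Met4, had 10.09 and 12.67, then 12.94 and 10.27, and MET28 was the other one higher. CBF1 ran the opposite way, with 8.67 and 7.18, then 7.36 and 8.92. MET4 itself stayed under 2-fold with 10.64 and 11.21, then 11.60 and 10.69.

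In the glutathione list, 4 of 7 genes were at least 2-fold higher on untreated 2 and allyl alcohol 1 and 0 lower. GSH1, which links glutamate to cysteine, had 10.93 and 13.08, then 12.95 and 10.92, and GSH2, which completes it, was level with 12.03 and 12.05, then 11.88 and 11.90. DUG3, part of a glutathione-degrading complex, had the largest difference of the list, 3.88 and 3.99 in log2 signal. Amino acid synthesis outside sulfur had medians of the other sign. Of 26 genes of the Gcn4 type in that list, 3 were higher and 10 lower, with medians of -0.69 and -0.58. ILV5, of branched-chain amino acid synthesis, had 13.72 and 10.93, then 10.53 and 13.71. No test was made between these lists, and the shares of all genes given above, 18.6% higher and 15.8% lower, are their background too.

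**Figure D4:**
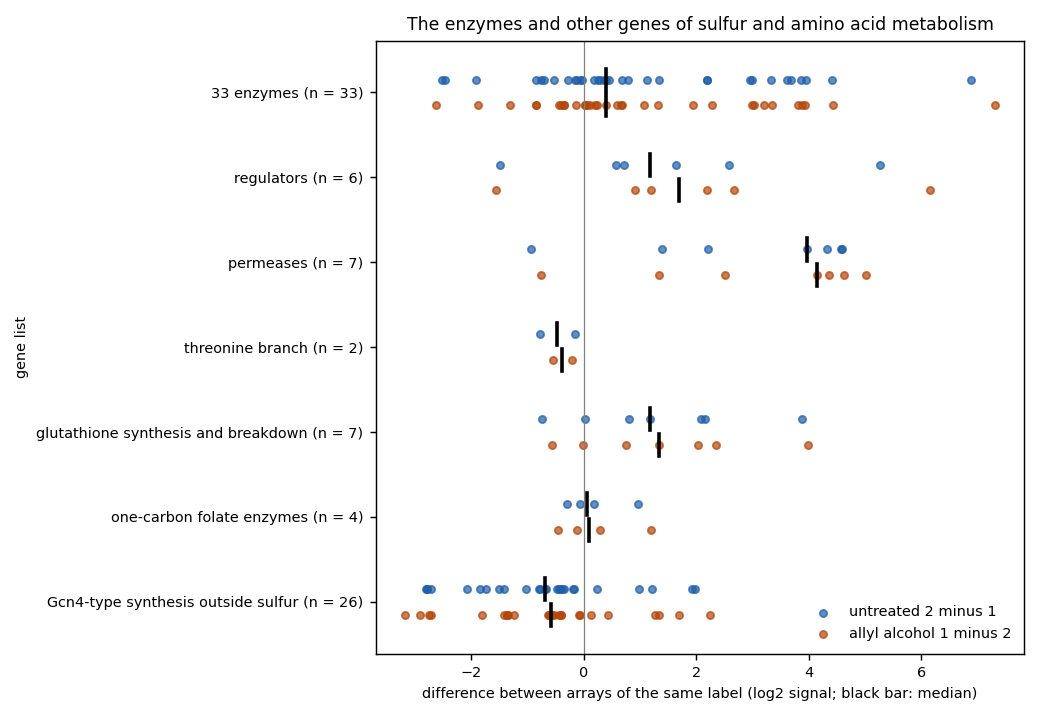
Differences between arrays of the same label in log2 signal for the 33 enzymes and for 6 lists of related genes, with 1 point per gene, blue for untreated 2 minus 1, orange for allyl alcohol 1 minus 2 and a black bar at the median. The permease medians, 3.96 and 4.14, lie far above 0, and those of the amino acid synthesis list, -0.69 and -0.58, below it.

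Control probe sets moved with these differences. All 36 probe sets for the Bacillus poly-A RNAs, which are added before labelling, were higher on untreated 2 and allyl alcohol 1, by medians of 0.88 and 1.14 in log2 signal. CYS3 differed by 1.12 and 1.07, near those medians. For the 27 hybridisation controls the medians were 0.20 and 0.14, and 24 of them were higher on both of these arrays. The 6 a-specific mating genes had median signals of 12.74 and 10.71 in untreated and 10.76 and 12.69 in allyl alcohol, and the 4 alpha-specific ones 9.29 and 9.47, then 9.46 and 9.27. The median difference inside each label was -2.30 for the a-specific genes, with 4 of the 6 at least 2-fold lower in both and 0 higher. For the alpha-specific genes the medians were 0.68 and 0.82, with 1 of the 4 at least 2-fold higher in both and 0 lower. The part of these in the results was not tested.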

How the data were processed

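The deposited values are RMA signals per probe set and array, with RMA and Affymetrix Expression Console named per the submitters' processing notes and versions not given in the sources used here. They were read as log2, since the deposited values lay between 2.78 and 14.75. RMA normalizes all arrays jointly, so a broad shift in total mRNA is partly removed. Scanner files were not used here.

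Of 10928 probe sets, 5498 had 1 gene, by platform annotation, that is listed in the RefSeq gene table of assembly R64, which gave 5449 genes. The brightest probe set stood for each of 47 genes with several. Background on an array was the 95th percentile of 1746 probe sets named outside that table. Groups were compared with lmFit and eBayes of limma 3.58.1 (R 4.3.3), no block, two-sided, at an adjusted p of 0.05. The fit was also run on simulated data with less spread between arrays than seen here. That run does not show what the fit can detect in these data. Same-numbered arrays did not pair (r of their deviations -0.973).

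The 33 genes and all lists were chosen with earlier results of these data known. The rule for named genes took all 33, label differences singly for 1 or more genes of most steps (STR2 and MET13 were added after their values were seen), and at most 5 genes of each related list. In 1 related list a permease was not matched and is not analysed here. Alternatives were other normalizations, probe set means, a filter on dim genes, an intensity trend, a block and leaving out each array. The number of arrays limits the precision.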

Additional observations from a re-analysis of the deposited data

How the results depend on the processing

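The number of genes called by limma, and of the 33 called, was 0 under every alternative run, among them the replicate number as a block (replicate block, 0 genes at an unadjusted p under 0.05). The crossed pairing of the replicate numbers, added after seeing the data, also gave 0. It had 188 of the 5449 genes, and 0 of the 33, at an unadjusted p under 0.05. The 188 are a share under 0.05, the share expected at this threshold if no gene differed. Without 1 array in turn, 12 of the 13 label differences given singly changed sign at least once, from the lowest to the highest value: -2.05 to 1.89 for MET3, -1.50 to 1.84 for MET16, -1.47 to 1.53 for MET10, -0.51 to 0.17 for MET17, -3.76 to 3.55 for MET2, -0.041 to 0.086 for MET6, -0.086 to 0.19 for SAM1, -1.03 to 1.49 for SAH1, -0.50 to 0.61 for CYS3, -2.25 to 2.18 for STR3, -0.66 to 1.25 for MET13 and -0.075 to 0.37 for MEU1. The exception was STR2, from -0.32 to -0.17, whose alternatives, like those of MET13, were added after its values were seen. The arrays agree crosswise, so leaving one out unbalances the groups. After quantile normalization anew, that of MET2 was 0.0099 and the cause was not tested. The medians inside untreated and allyl alcohol were 0.38 and 0.41 after quantile normalization anew, and 0.33 and 0.35 with arrays centred on the median gene. The counts of 13 higher and 3 lower held under these alternatives with the same genes. Signs inside a label turned for UTR4 under both and for MET6 with centring. A difference inside a label could not be recomputed without an array.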
